A study of Mus musculus with 12 samples.

Results

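The contractile apparatus of smooth muscle was followed in mouse colon through 10 genes: Acta2, Actg2, Myh11, Tagln, Cnn1, Des, Lmod1, Synm, Smtn and Mylk. The genes were taken by name, through the Ensembl identifiers of the deposited table, and not by their values. All 10 were found among the 54532 genes of that table, and all 10 passed the filter on low values, which kept 14179 genes. The samples were colon from wild-type (WT) C57BL/6J mice in 4 groups of 3. One group is labelled CD, a diet whose abbreviation the labels do not spell out, and one HFD, the high-fat diet of the series title. The other groups are labelled CD+2% DSS and HFD+2% DSS, called CD+DSS and HFD+DSS below. DSS is dextran sodium sulphate, which injures the colon lining and is used to model colitis. Age, sex, the length of feeding and of DSS exposure, and the stretch of colon taken are not in the labels used here. The labels do not say whether samples of a group were separate animals, so p-values measure the spread between these samples.

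Smooth muscle shortens when myosin pulls on actin. Calcium entering the cell activates myosin light chain kinase, whose phosphorylation of the myosin light chain starts the contraction. In the colon most of this muscle lies in the circular and longitudinal layers of the muscularis propria, with a thin muscularis mucosae under the epithelium and further smooth muscle in vessel walls. Many contractile genes are known targets of serum response factor (SRF), which binds a DNA element called the CArG box and acts with myocardin or the related MRTF coactivators.

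The members fall into 4 roles. The filaments that slide are built from Acta2 and Actg2, the smooth muscle alpha and gamma actins, and Myh11, the smooth muscle myosin heavy chain. Mylk encodes the myosin light chain kinase. Thin-filament partners are Cnn1 (calponin 1, which binds actin and inhibits myosin's ATPase), Tagln (transgelin or SM22, an actin-bundling protein), Lmod1 (leiomodin 1, which nucleates actin filaments) and Smtn (smoothelin, a cytoskeletal protein of contractile cells). Des (desmin) and Synm (synemin) form the intermediate filaments that tie the apparatus together.

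In the mm10 build, named in the submitters' processing notes, with GENCODE M21 gene models, the members lie on 7 chromosomes, all as protein-coding genes. Acta2 (ENSMUSG00000035783) spans chromosome 19, 34241090 to 34255590, on the minus strand. Actg2 (ENSMUSG00000059430) lies on chromosome 6, 83512905 to 83536265, minus strand. Myh11 (ENSMUSG00000018830) and Mylk (ENSMUSG00000022836) share chromosome 16, at 14194535 to 14291372 (minus) and 34745210 to 35002420 (plus). Tagln (ENSMUSG00000032085) and Cnn1 (ENSMUSG00000001349) share chromosome 9, at 45929619 to 45936058 (minus) and 22099216 to 22109630 (plus). Des (ENSMUSG00000026208) and Lmod1 (ENSMUSG00000048096) are both on the plus strand of chromosome 1, at 75360329 to 75368579 and 135324807 to 135368065. Synm (ENSMUSG00000030554) spans chromosome 7, 67730160 to 67759742, and Smtn (ENSMUSG00000020439) chromosome 11, 3517523 to 3540612, both on the minus strand.

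Because 9 of the members varied together over the libraries, their promoters were read for the CArG box. The RefSeq table for GRCm38.p6 gave a window from 250 bases before to 50 after the start for 7 of the 10, namely Acta2, Cnn1, Des, Lmod1, Synm, Smtn and Mylk. An exact CArG box, on either strand, was in 0 of these 7 windows and in 1.63% of all 32851 promoter windows. With up to 1 mismatch, 3 of the 7 held a match, against 21.1% of all windows. The 3 windows follow, 5′ to 3′ on the gene's strand, with the CArG-like matches in capitals, and they show how the matches differ in number, letters and distance from the start. A match is a description of the letters and not evidence of binding.
Acta2, chr19:34255324-34255623, minus strand: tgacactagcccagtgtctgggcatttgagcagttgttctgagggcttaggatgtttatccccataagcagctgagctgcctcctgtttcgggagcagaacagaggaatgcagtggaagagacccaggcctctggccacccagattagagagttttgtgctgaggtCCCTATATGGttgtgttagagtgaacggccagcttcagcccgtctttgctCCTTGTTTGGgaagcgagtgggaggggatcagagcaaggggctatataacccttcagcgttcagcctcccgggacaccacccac
Lmod1, chr1:135324563-135324862, plus strand: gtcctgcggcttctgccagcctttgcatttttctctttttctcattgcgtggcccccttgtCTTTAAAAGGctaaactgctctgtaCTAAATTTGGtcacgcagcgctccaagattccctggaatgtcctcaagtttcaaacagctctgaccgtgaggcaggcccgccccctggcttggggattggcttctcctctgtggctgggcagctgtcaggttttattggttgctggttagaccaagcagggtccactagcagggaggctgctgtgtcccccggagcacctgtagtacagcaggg
Synm, chr7:67759693-67759992, minus strand: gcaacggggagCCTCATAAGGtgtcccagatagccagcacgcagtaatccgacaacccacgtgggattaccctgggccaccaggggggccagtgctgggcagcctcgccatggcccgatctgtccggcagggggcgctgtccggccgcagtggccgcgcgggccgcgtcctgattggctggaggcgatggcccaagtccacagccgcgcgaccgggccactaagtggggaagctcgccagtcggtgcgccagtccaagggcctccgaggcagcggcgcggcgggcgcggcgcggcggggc
Acta2 held 2 matches, CCCTATATGG at 84 bases and CCTTGTTTGG at 34 bases before the start. Lmod1 also held 2, CTTTAAAAGG at 189 bases and CTAAATTTGG at 164 bases before the start. Synm had 1, CCTCATAAGG at 239 bases before the start. At least 2 matches in a window were found in 3.7% of all promoters.

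Levels are FPKM, fragments per kilobase of gene length scaled by a size for each library, so they can be compared between genes. Fragment numbers recovered from the FPKM values came to 14700000 to 17900000 per library. The size used for scaling was not this total. It was 13500000 against 16000000 recovered fragments in CD+DSS replicate 2, and 19100000 against 17900000 in HFD+DSS replicate 3. The median ratio of genes to their geometric mean over the libraries was 1.0087 in each library. Acta2 rested on 6641 to 40803 fragments a library, Lmod1 on 427 to 2152 and Tagln on 21 to 75, so counting error is largest for Tagln. Skeletal muscle markers summed to 41.6 FPKM in CD replicate 3 and to 4.74 to 14.5 in the other 11 libraries. They are 10 genes, of which 6 were at 0 in some library (Myh1, Myh2, Myh4, Tnnt3, Actn3 and Mb). Colon epithelial markers were high in every library, with 10 genes summing to 5731.8 FPKM or more and none at 0. No library repeated another of its group, since replicates differed far beyond counting noise.

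The order of the members was steep and stable. Acta2 and Actg2 were the most abundant, with 12-library means of 434.5 and 368 FPKM. Des, Myh11 and Cnn1 followed at 156, 143 and 141, then Mylk at 44.8, Smtn at 26.4, Synm at 19.0, Lmod1 at 12.9 and Tagln at 1.52. Acta2 stood above Actg2, Actg2 above Des, Cnn1 above Mylk, Mylk above Smtn, and Lmod1 above Tagln in 12 of 12 libraries. Neighbours with closer levels changed places. Des was above Myh11 in 9 of 12 libraries, Myh11 above Cnn1 in 7, Smtn above Synm in 9 and Synm above Lmod1 in 10, so Myh11 and Cnn1 in particular were not separated. Summed over the 10 genes, the level was 1191, 1514 and 1235 FPKM (CD), 1309, 1873 and 822 (HFD), 1274, 681 and 805 (CD+DSS) and 1178, 1119 and 3165 (HFD+DSS). That is 0.157% of all FPKM in CD+DSS replicate 2 and 0.913% in HFD+DSS replicate 3. Acta2 ranked 24 among all genes in HFD+DSS replicate 3 and 239 in CD+DSS replicate 2.

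**Figure D1:**
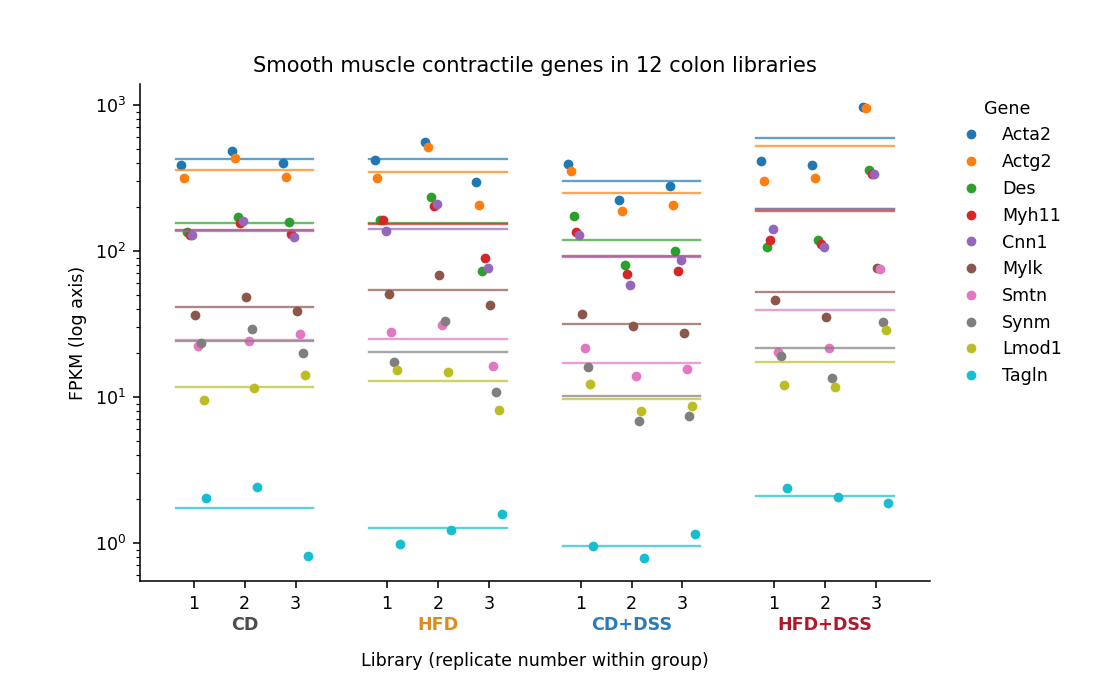
FPKM (log axis) of the 10 contractile genes in each of the 12 colon libraries, ordered by group and replicate number. Points are libraries and horizontal lines are group means (n = 3). HFD+DSS replicate 3 sits highest for 8 of the 10 genes, with Acta2 at 973, and CD+DSS replicate 2 lowest for 8.

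The sliding filaments set the pattern. Acta2 measured 389.5, 483 and 397 FPKM (CD), 420.1, 559 and 299 (HFD), 394, 224 and 279 (CD+DSS) and 412, 385 and 973 (HFD+DSS). The CD libraries lay close together, CD+DSS reached lower, and a single HFD+DSS library lay far above the other 11. Actg2, the isoform typical of visceral muscle, measured 314, 429 and 322 (CD), 315, 518 and 205 (HFD), 355, 188 and 208 (CD+DSS) and 299.7, 314 and 948 (HFD+DSS). Myh11 measured 129, 156 and 131 (CD), 163, 205 and 89.3 (HFD), 134, 69.9 and 73.1 (CD+DSS) and 119.5, 111 and 335 (HFD+DSS). Both resembled Acta2, with HFD replicate 3 and CD+DSS replicates 2 and 3 low, HFD replicate 2 high and HFD+DSS replicate 3 highest. Group ranges overlapped for these 3 genes in each of the 4 comparisons between groups.

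Calponin and desmin followed the same libraries. Cnn1 measured 128, 160.1 and 124 FPKM (CD), 137, 211 and 76.2 (HFD), 128, 58.6 and 86.1 (CD+DSS) and 140.1, 107 and 337 (HFD+DSS). Des measured 136, 170.1 and 158 (CD), 162, 234 and 73.4 (HFD), 175, 80.5 and 99.5 (CD+DSS) and 107, 119 and 357 (HFD+DSS). Des, which skeletal muscle also makes, was between the other CD libraries in CD replicate 3, the library with skeletal muscle transcripts. The lowest Des value was in HFD replicate 3 and not in CD+DSS.

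Synm, the other intermediate filament gene, stood lowest under DSS with the CD diet. It measured 23.2, 29.1 and 20.1 FPKM (CD), 17.2, 32.9 and 10.7 (HFD), 16.1, 6.88 and 7.38 (CD+DSS) and 19.2, 13.5 and 32.3 (HFD+DSS). All 3 CD+DSS libraries were below all 3 CD libraries, while the HFD and HFD+DSS ranges overlapped. Smtn measured 22.3, 24.2 and 27.1 (CD), 27.8, 31.2 and 16.2 (HFD), 21.6, 13.8 and 15.4 (CD+DSS) and 20.4, 21.7 and 75.2 (HFD+DSS). Its CD+DSS libraries also lay below CD, though replicate 1 of CD+DSS was within 1 FPKM of the lowest CD value.

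Mylk and Lmod1 varied least among the 9 abundant members. Mylk measured 36.4, 48.5 and 38.6 FPKM (CD), 50.8, 68.2 and 42.7 (HFD), 36.8, 30.6 and 27.4 (CD+DSS) and 46.3, 35.1 and 76.3 (HFD+DSS), a 2.79-fold span. Lmod1 measured 9.58, 11.5 and 14.2 (CD), 15.3, 14.8 and 8.19 (HFD), 12.3, 8.01 and 8.61 (CD+DSS) and 12.0, 11.6 and 28.6 (HFD+DSS), a 3.56-fold span. The other 7 abundant members spanned 4.34-fold (Acta2) to 5.75-fold (Cnn1). Group ranges of Mylk and Lmod1 overlapped in each comparison.

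Tagln did not follow the others. It measured 2.02, 2.40 and 0.815 FPKM (CD), 0.979, 1.23 and 1.57 (HFD), 0.945, 0.783 and 1.15 (CD+DSS) and 2.37, 2.07 and 1.87 (HFD+DSS). The HFD+DSS libraries were all above the HFD and the CD+DSS libraries, and HFD+DSS replicate 3, highest for most members, was the lowest of its group here. Tagln is known as one of the most abundant transcripts of smooth muscle, and its level here was about that of a gene near the filter. Of its 1988 exon bases, 1349 (67.9%) are overlapped by exons on the opposite strand. The antisense gene Gm48529 covers 1241 (62.4%) of them and was listed at 0.724 to 2.13 FPKM, and Pcsk7 covers 108 (5.43%). Of the 50-base words of Tagln transcripts, 58.3% occur in another gene's transcripts, against 9.46% for Smtn and 5.16% or less for the other members. How the counting treated strand and shared bases is not stated in the sources. The part of this overlap in the low level was not tested, and Tagln values are uncertain for this reason. Of Smtn exon bases 16.3% are overlapped, by the opposite-strand Gm11946 (0.42 to 6.99 FPKM), and of the remaining members' exon bases 6.85% or less. The part of overlap in the levels of Smtn and the remaining members was not tested either.

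The 9 abundant members varied together from library to library. Over the 12 libraries their 36 pairs had Pearson correlations of log2(FPKM + 1) of 0.711 to 0.985, with a median of 0.916 (Spearman median 0.853). Without HFD+DSS replicate 3 that median of 0.916 became 0.892. Within groups, after subtracting each group's mean, the median was 0.930. Tagln correlated with the others at 0.0859 to 0.426. The points of these correlations share library, depth and tissue piece, and they are descriptions with no p-value.

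Relative to Myh11 in the same library, most of that variation disappeared. Acta2 was 2.58 to 3.81 times the Myh11 level, Actg2 1.93 to 2.84 times and Cnn1 0.840 to 1.18 times, spans of 1.48-fold, 1.47-fold and 1.40-fold. Synm and Mylk kept more of a pattern of their own. Synm was 0.153 to 0.186 of Myh11 in CD, 0.106 to 0.161 in HFD, 0.0985 to 0.120 in CD+DSS and 0.0966 to 0.161 in HFD+DSS. The CD+DSS libraries were below CD on this scale, but the ratio reuses the same Synm values and adds no support. The share of all genes separated on such a scale was not counted. Mylk was 0.228 of Myh11 in HFD+DSS replicate 3, where the muscle genes peaked, and 0.478 in HFD replicate 3 and 0.438 in CD+DSS replicate 2, where they were low.

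Outside the list, genes whose profile was nearest to the members' mean profile over the 12 libraries included Flna (Pearson r = 0.960), Tns1 (0.957), Tpm2 (0.957), Ppp1r12b (0.955), Atp2b4 (0.953), Popdc2 (0.945) and Pgm5 (0.944). Flna encodes the actin crosslinker filamin A, Tpm2 beta-tropomyosin, Ppp1r12b a myosin phosphatase targeting subunit and Atp2b4 a plasma membrane calcium pump. Each of these 7 was highest in HFD+DSS replicate 3, and without it their correlations were 0.893 to 0.943. Among all tested genes, ordered by the same measure, Acta2, Myh11, Cnn1 and Actg2 took places 1 to 4, which their part in the mean favours, and Tagln place 2094.

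DSS under the CD diet was compared first, CD+DSS against CD. All 10 members had lower estimates with DSS, by a median log2 fold change of -0.53, on the log2(FPKM + 1) scale used throughout, which understates changes of low genes such as Tagln. The median over all genes tested was 0.012, and 48.5% of all genes had negative estimates. None of the 10 was called by limma (p adjusted by Benjamini-Hochberg over all genes, threshold 0.05), a result that 0.0846% of the 14179 genes reached. At an unadjusted p under 0.05 the count was 1 of 10, against 15.2% of all genes, and limma-voom on recovered fragments also called 0. Acta2 went from 423 ± 52 (SD, n = 3) to 299.1 ± 87.0 FPKM, so that the log2 fold change was -0.53 ± 0.37 (SE) with limma (adjusted p = 0.490; 95% interval -1.33 to 0.27). Myh11 went from 139 ± 15 to 92.5 ± 36.4, a log2 fold change of -0.64 ± 0.43 (limma adjusted p = 0.483; -1.59 to 0.31). Both intervals run from more than halved levels to small increases.

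Synm had the lowest estimate of the members under CD. Its mean was 24.1 ± 4.6 FPKM without and 10.1 ± 5.2 with DSS, and the log2 fold change was -1.26 ± 0.42 (limma unadjusted p = 0.0122, adjusted p = 0.225; 95% interval -2.18 to -0.33). Cnn1 had -0.65 ± 0.46, Actg2 -0.55 ± 0.46, Smtn -0.53 ± 0.42, Des -0.46 ± 0.50, Tagln -0.44 ± 0.22, Mylk -0.37 ± 0.27 and Lmod1 -0.27 ± 0.33. Their limma adjusted p-values were 0.365 or more. Synm and Smtn were the 2 of 10 members with all 3 CD+DSS libraries on one side of all 3 CD libraries, both lower. That separation held for 24.1% of all genes tested, so the members' share was no larger than the background. In bulk tissue, fewer muscle cells in a piece and less of each transcript per cell cannot be told apart.

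Another list also differed between the libraries, though not always along with the members. Hoxa13, Hoxb13 and Hoxd13, posterior Hox genes expressed toward the far end of the gut, summed to 38.3 to 111 FPKM in CD, 7.04 to 34.7 in HFD, 1.62 to 40.5 in CD+DSS and 46.6 to 92.8 in HFD+DSS. Hoxb13 was at 0 in HFD replicate 2, and Hoxd13 at 0 there and in CD+DSS replicates 2 and 3. In CD+DSS replicates 2 and 3 the median centred log2 level was -2.12 and -1.78 for the Hox genes. The members were at -0.81 and -0.58 there. In HFD replicates 1 and 2 the Hox genes were at -1.74 and -1.78, but the members at 0.15 and 0.64. With the mean log2 level of the 3 Hox genes as a covariate, the members' median under CD was -0.28 in place of -0.53. CD+DSS replicate 2, lowest for 8 members, was also low for fibroblast markers (98.4 FPKM summed over 6 genes, against 126 to 297 elsewhere) and endothelial markers (10.2 over 6 genes, against 10.4 to 31.1), none of them at 0. The median centred log2 level of its 10 epithelial markers was 0.62, the highest of the 12 libraries, while HFD replicate 3, another library with low members, was at 0.065. Summed, these markers gave another order, 18154 FPKM in CD+DSS replicate 2 and 19877 in HFD replicate 3, against 5731.8 to 11414 elsewhere. Car1 made up 10239 and 14081 of these 2 sums. The part of tissue make-up in the members' levels was not tested beyond these values.

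DSS under HFD gave estimates of the other sign. Between HFD and HFD+DSS 9 of 10 members had higher estimates, while 49.1% of all genes had negative ones. The members' median log2 fold change was 0.36 against 0.0069 over all genes. None passed (limma adjusted p under 0.05, reached by 0.339% of genes), 0 of 10 had an unadjusted p under 0.05 against 13.6% of all genes, and limma-voom called 0. Acta2 went from 426 ± 130 to 590 ± 332 FPKM, with a log2 fold change of 0.38 ± 0.37 (limma adjusted p = 0.674; 95% interval -0.42 to 1.18). Actg2 had 0.47 ± 0.46, Tagln 0.46 ± 0.22, Smtn 0.41 ± 0.42, Cnn1 0.40 ± 0.46, Lmod1 0.34 ± 0.33, Des 0.23 ± 0.50, Myh11 0.19 ± 0.43 and Synm 0.14 ± 0.42, while Mylk had -0.083 ± 0.271. The direction rested on 1 library. Without HFD+DSS replicate 3 the median was -0.13 and 9 of 10 estimates were negative, and without HFD replicate 3, the low HFD library, the median was 0.046. Leaving out HFD replicate 2 raised it to 0.57, and the Hox covariate lowered it to 0.16. Tagln was the 1 member whose HFD+DSS libraries all lay on one side of the HFD libraries, higher, a separation found for 16.4% of genes.

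**Figure D2:**
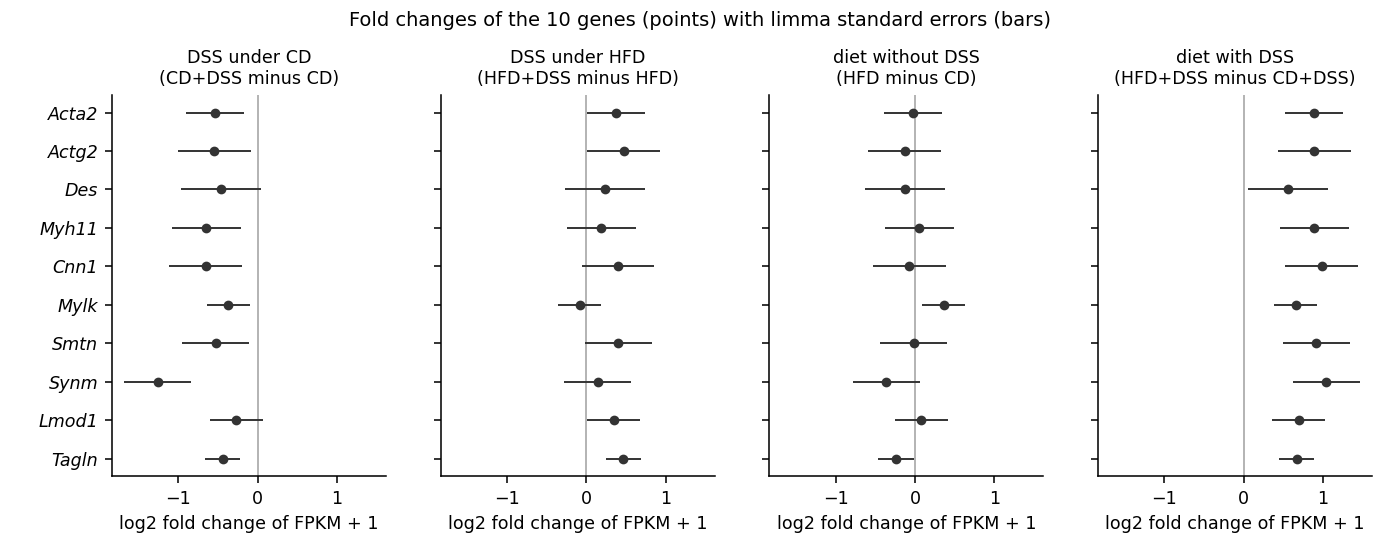
Log2 fold changes of FPKM + 1 (points) with limma standard errors (bars) for the 10 contractile genes, in the 4 comparisons between groups. All 10 points are below 0 for DSS under CD and above 0 for diet with DSS, and none of the 40 comparisons passed the adjusted threshold.

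The high-fat diet alone was not associated with a shared direction. Between CD and HFD 3 members had higher and 7 lower estimates, while 54.1% of all genes had negative ones. The members ran from -0.36 ± 0.42 for Synm to 0.37 ± 0.27 for Mylk, with a median log2 fold change of -0.050 against -0.016 over all genes. None passed (limma adjusted p = 1 for each), 0% of all genes passed, 0 members had an unadjusted p under 0.05 against 4.15% of all genes, and limma-voom called 0. Acta2 differed by -0.030 ± 0.365 (95% interval -0.83 to 0.77), so changes of up to about that size in either direction remain within the error. All 10 group ranges overlapped, whereas 9.63% of all genes were separated. Actg2 ranged from 205 to 518 FPKM in HFD and from 314 to 429 in CD. Without HFD replicate 3 the median was 0.29, without HFD replicate 2 it was -0.24, without CD replicate 2 it was 0.031, and with the Hox covariate 0.12.

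Under DSS, the diets were farther apart. All 10 members had higher estimates in HFD+DSS than in CD+DSS, while 54.6% of all genes had negative ones. The members' log2 fold changes ran from 0.56 ± 0.50 (Des) to 1.04 ± 0.42 (Synm), with a median of 0.88 against -0.026 over all genes. None passed limma's adjusted threshold, which 0% of genes reached, and limma-voom called 0. The unadjusted p was under 0.05 for 4 of 10 members, against 6.62% of all genes. These were Tagln at 0.67 ± 0.22 (limma adjusted p = 0.722), Synm, Mylk at 0.65 ± 0.27 and Acta2 at 0.88 ± 0.37 (limma adjusted p = 0.746 for both). Cnn1 had 0.98 ± 0.46, Smtn 0.92 ± 0.42, Actg2 0.89 ± 0.46, Myh11 0.89 ± 0.43 and Lmod1 0.69 ± 0.33. Tagln was the 1 member with separated groups (higher in HFD+DSS), against 9.46% of all genes. This comparison uses the same CD+DSS and HFD+DSS libraries as the 2 DSS comparisons. Because 9 of the members varied together over the libraries, counts of members here and in the other comparisons are not counts of separate observations.

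HFD+DSS replicate 3 carried much of that median. Without it, all 10 estimates stayed positive but ran from 0.0096 (Des) to 0.72, with a median of 0.37. In that library enteric neuron markers summed to 154 FPKM over 10 genes, against 37.5 to 68.2 in the other 11. Uchl1, a neuronal ubiquitin hydrolase, was 49.1 FPKM there and 8.63 to 14.2 elsewhere. By group the neuron sums were 41.1 to 48.8 in CD, 37.5 to 56.5 in HFD, 42.0 to 53.6 in CD+DSS and 42.1 to 154 in HFD+DSS, with no marker at 0. Endothelial markers in HFD+DSS replicate 3 summed to 10.4 FPKM, near the lowest of all libraries. The part of these differences in the members' levels was not tested.

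**Figure D3:**
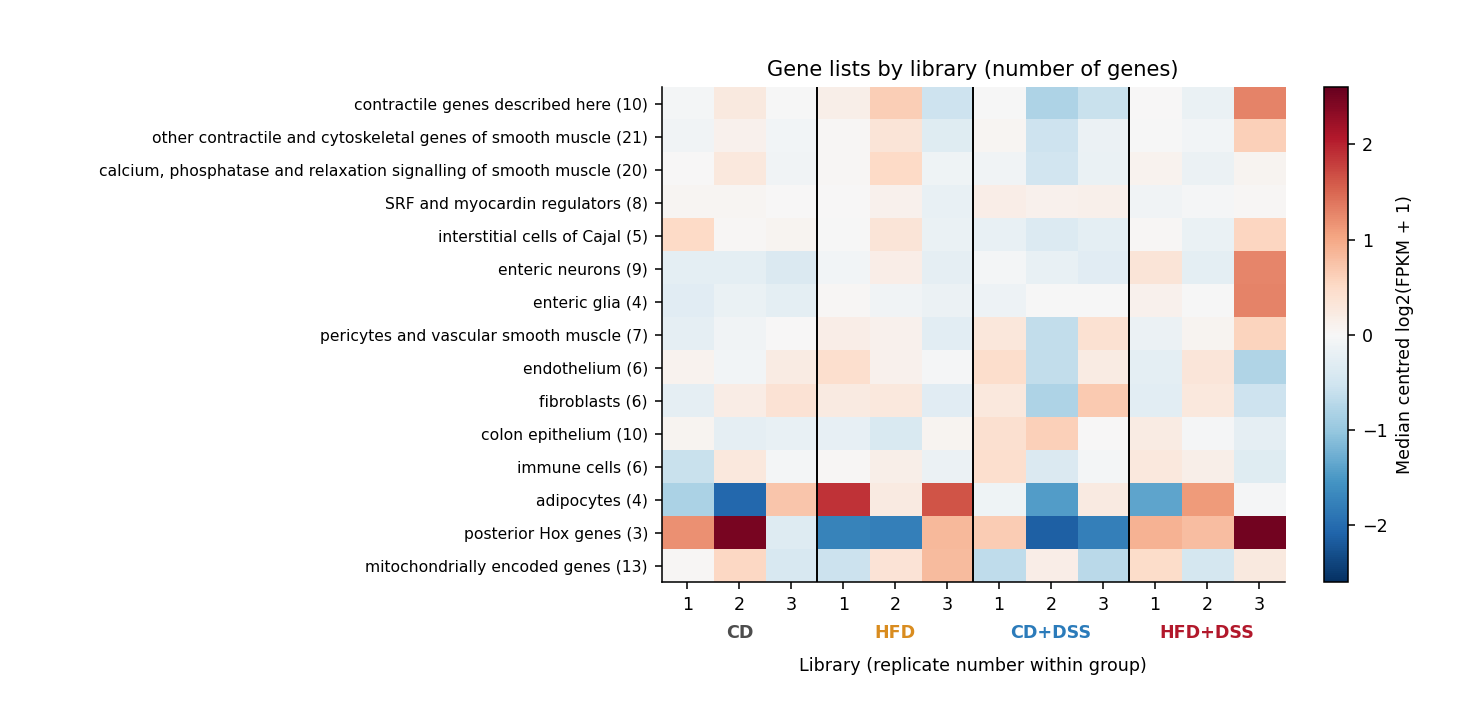
Median log2(FPKM + 1) of each gene list after centring every gene over the 12 libraries (colour), by library, with the number of tested genes in brackets. The contractile genes peak in HFD+DSS replicate 3 at 1.30, where neuron and glial markers reach 1.27 and 1.28, and are lowest in CD+DSS replicate 2 at -0.81.

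Averaged over both diets, DSS estimates of opposite sign (medians -0.53 under CD and 0.36 under HFD) partly cancelled. The 95% intervals of the averages were wide, such as -0.90 to 0.45 for Myh11. The members' median log2 fold change was -0.094, against 0.0075 over all genes. Negative estimates were found for 49.1% of all genes and for 8 members, with 2 members positive. The members ran from -0.56 ± 0.30 (Synm, limma adjusted p = 0.283) to 0.039 ± 0.237 (Lmod1). None passed, while 2.74% of all genes did (limma adjusted p under 0.05), 0 of 10 had an unadjusted p under 0.05 against 23.5% of all genes, and limma-voom called 0. Without HFD+DSS replicate 3 the median was -0.37 with 9 of 10 negative, and without HFD replicate 2 it was 0.030. The difference between the DSS effects, HFD minus CD, was positive for all 10, while 51% of all genes had negative estimates. The members' median was 0.91 against -0.0071 over all genes. Synm differed by 1.40 ± 0.60 (limma unadjusted p = 0.0381, adjusted p = 0.885) and Tagln by 0.90 ± 0.31 (limma unadjusted p = 0.0142, adjusted p = 0.772), the 2 of 10 with an unadjusted p under 0.05, which 5.42% of all genes had. Neither passed, 0% of all genes passed, and limma-voom called 0 members. The median of this difference was 0.41 without HFD+DSS replicate 3 and 0.42 with the Hox covariate, so a different DSS effect under the 2 diets was not resolved.

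**Figure D4:**
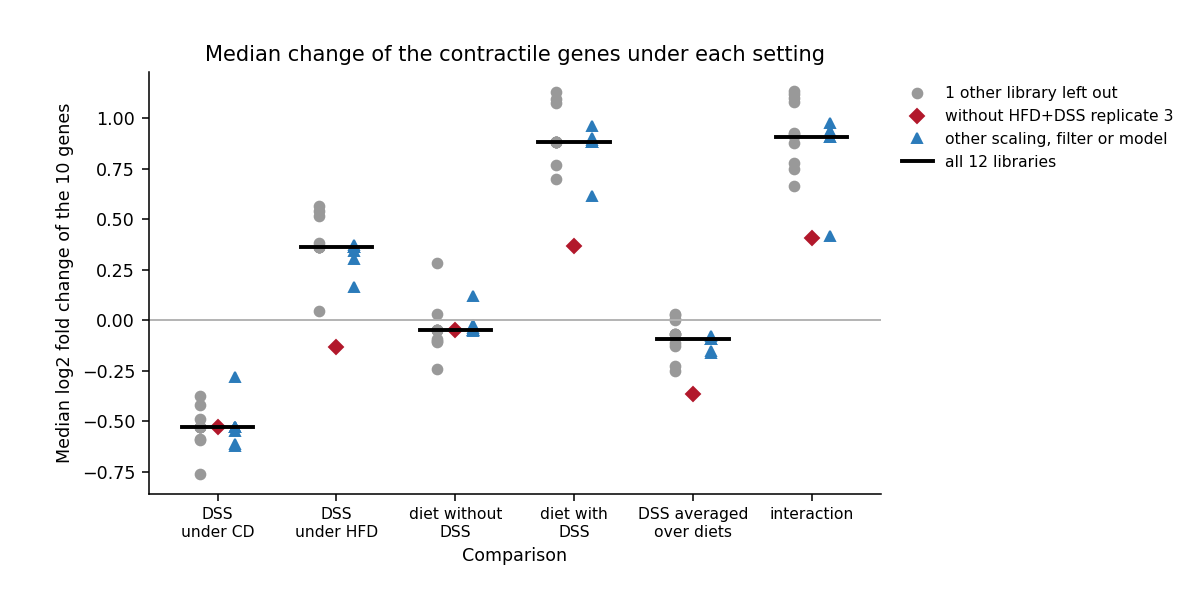
Median log2 fold change of the 10 contractile genes in each comparison, with all 12 libraries (black bars), with 1 library left out (circles and diamonds) and with another scaling, filter or model (triangles). Without HFD+DSS replicate 3 (diamonds) the median for DSS under HFD goes from 0.36 to -0.13, and for diet with DSS from 0.88 to 0.37.

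Other genes of smooth muscle were read from 3 further lists. In the averaged DSS comparison, 1 of 21 tested contractile and cytoskeletal genes fell and 0 rose, 1 of 20 tested signalling genes fell and 0 rose, and 0 of 8 regulators passed in either direction (limma adjusted p under 0.05). Of all genes, 2.74% passed in this comparison, so the share of each list was near the background. The medians of the 3 lists were 0.014, -0.21 and 0.086. None of their genes passed in the other 5 comparisons. Fhl1, a four-and-a-half LIM domain protein of muscle, fell. It measured 81.0, 128 and 74.6 FPKM (CD), 71.0, 99.8 and 68.1 (HFD), 59.5, 34.7 and 33.6 (CD+DSS) and 42.8, 51.7 and 45.6 (HFD+DSS). Every DSS library was below every library without DSS, and HFD+DSS replicate 3 was not raised. Because Fhl1 was named for its small p-value in this comparison, that separation adds no support. The share of all genes separated in this way was not counted. The log2 fold change of Fhl1 was -0.94 ± 0.19 (limma adjusted p = 0.0284). Over 18 alternatives the limma adjusted p ran from 0.0197 to 0.0879, and it was under the threshold in 9.

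Cav1, which encodes caveolin 1 of the membrane pits dense in smooth muscle and endothelium, fell as well. It measured 41.1, 52.6 and 40.4 FPKM (CD), 42.4, 55.4 and 48.5 (HFD), 29.5, 13.6 and 20.2 (CD+DSS) and 32.2, 30.3 and 35.1 (HFD+DSS). Again the libraries with DSS all lay below those without. This adds no support either, because Cav1 too was named for its small p-value in the averaged DSS comparison. The log2 fold change was -0.83 ± 0.17 (limma adjusted p = 0.0292), with an adjusted p of 0.0153 to 0.0923 over 18 alternatives and past the threshold in 9. Endothelium also expresses Cav1, and 6 of 6 endothelial markers had averaged DSS estimates below 0 with none called; their part in the lower Cav1 was not tested. Calls of both genes were lost on leaving out replicate 1 or 2 of CD, 2 of HFD, 3 of CD+DSS or 1 of HFD+DSS, and with no filter on low values; trying the alternatives on these 2 genes was chosen after seeing the data. Fhl1 was also lost without replicate 1 of HFD, 2 of CD+DSS or 3 of HFD+DSS, and Cav1 without HFD+DSS replicate 2, with TPM scaling or with the replicate block.

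The next genes of these lists by p-value did not pass. Synpo2, an actin-binding protein of the Z-disc and dense bodies, had -0.76 ± 0.23 (limma adjusted p = 0.0906), and Itga8, the integrin alpha 8 subunit, -0.39 ± 0.13 (adjusted p = 0.128, limma). Myl6, the non-muscle and smooth muscle essential light chain, had 0.47 ± 0.15 (limma adjusted p = 0.112). Among the signalling genes, Pde5a, which breaks down cGMP, had -0.44 ± 0.12 (limma adjusted p = 0.0719), the calcium pump gene Atp2a2 0.39 ± 0.11 (0.0828) and the myosin phosphatase inhibitor gene Ppp1r14a 0.76 ± 0.26 (0.120). The regulators Srf and Myocd, whose proteins act on the CArG box, were measured at 18.0 to 30.0 and 0.473 to 2.47 FPKM. Srf had an averaged DSS estimate of 0.21 ± 0.12, Myocd -0.32 ± 0.18, the myocardin-related Mrtfa 0.24 ± 0.10 and the transcription factor gene Hand1 0.53 ± 0.28, with limma adjusted p-values of 0.175 or more.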

How the data were processed

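Messenger RNA of mouse colon was sequenced in 12 samples, 4 groups of 3. An RNeasy kit and a SMARTER mRNA-Seq library kit were used, per the labels. The authors deposited 1 table of FPKM values for 54532 Ensembl genes. The mm10 build comes from the submitters' processing notes. No aligner, counter or annotation is stated (not given in the sources used here). FPKM divides out gene length and a size for each library, which here differed from the fragment total. Depth was recovered as FPKM times exon length, and 96.9% to 97.2% of values came out whole within 0.1 fragments.

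Symbols came from GENCODE M21 and matched 54495 identifiers. The 14179 genes that reached 1 FPKM in at least 3 libraries were fitted as log2(FPKM + 1), 1 mean per group over all 12 libraries, with limma 3.58.1 (R 4.3.3, trend), and p-values were adjusted by Benjamini-Hochberg over all genes tested. The fit was also run on simulated counts, drawn independently for each gene with the same spread setting, unlike these data. The outcome is not given here and adds no support to the calls. Alternatives were a pseudocount of 0.1, no filter, TPM scaling, limma-voom on recovered fragments, the 2 groups alone, a replicate block, a posterior Hox covariate, and each library left out. The 10 members, the 16 other lists (143 genes) and the tests were chosen with earlier results of these data known. Named genes were the members, up to 4 genes of each smooth muscle list with the smallest p for DSS averaged over diets, and the 8 non-members with the most similar profile, of which 1 is not reported here. Promoter windows came from RefSeq.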

Additional observations from a re-analysis of the deposited data

How the results depend on the processing

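With 3 libraries a group, intervals of the members' fold changes were wide, and under none of the alternatives did a member pass in any comparison (smallest limma adjusted p 0.109, against 0.225 with all libraries). For DSS under CD and for diet with DSS no member changed sign. Of 940 single-member values 70 changed sign, over 25 of 50 results, none of them called. With 1 library left out, the median log2 change ran from -0.76 to -0.37 for DSS under CD, -0.13 to 0.57 for DSS under HFD, -0.24 to 0.29 for diet without DSS, 0.37 to 1.13 for diet with DSS, -0.37 to 0.030 for DSS averaged and 0.41 to 1.13 for the difference.

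Reversals under DSS with HFD, with 1 library left out, gave ranges of -0.051 to 0.62 for Acta2, -0.070 to 0.81 for Actg2, -0.32 to 0.47 for Myh11, -0.088 to 0.74 for Cnn1, -0.32 to 0.60 for Des, -0.057 to 0.56 for Lmod1, -0.22 to 0.55 for Synm, -0.19 to 0.73 for Smtn and -0.38 to 0.17 for Mylk. Diet without DSS gave -0.25 to 0.20 for Acta2, -0.47 to 0.20 for Actg2, -0.20 to 0.40 for Myh11, -0.41 to 0.31 for Cnn1, -0.49 to 0.34 for Des, -0.067 to 0.35 for Lmod1, -0.77 to 0.00011 for Synm and -0.19 to 0.26 for Smtn. DSS averaged gave -0.29 to 0.043 for Acta2, -0.31 to 0.13 for Actg2, -0.13 to 0.10 for Tagln, -0.37 to 0.044 for Cnn1, -0.39 to 0.070 for Des, -0.16 to 0.14 for Lmod1 and -0.36 to 0.099 for Smtn. With the Hox covariate, DSS under HFD was -0.026 for Myh11 and -0.11 for Synm, and diet without DSS was 0.20 for Acta2, 0.13 for Actg2, 0.00071 for Tagln, 0.14 for Cnn1, 0.00073 for Des and 0.089 for Smtn. Limma-voom gave 0.0064 for Smtn in diet without DSS and, in DSS averaged, -0.051 for Tagln and -0.0085 for Lmod1, where TPM scaling gave -0.035 and -0.027. The cause of these reversals was not tested.

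The replicate block called 0 members. It could not move the medians (-0.53 for DSS under CD, 0.36 under HFD), because each replicate number occurs once in every group. Deviations of same-numbered samples from their group means correlated at r = -0.462 to 0.204. Differently numbered samples were not compared, so what the numbers mark was not tested. Over all genes, calls ran from 0 to 33 for DSS under CD (12 with all libraries), 1 to 78 under HFD (48) and 114 to 479 averaged (389), with 2, 12 and 162 under the replicate block.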
